A study of Mus musculus with 2 samples.

Results

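Most promoters rich in CpG, the dinucleotide that marks CpG islands, are open to DNase I in any tissue, and the regions described here are the exceptions in the mouse frontal cortex. They are the 2 kb windows centred on the annotated 5' ends of 359 protein-coding genes, out of 8814 protein-coding genes with a CpG-rich promoter and 21938 protein-coding genes in all. A promoter counted as CpG-rich with 53 or more CpG in the 1 kb centred on the 5' end of the gene. The 359 genes were chosen by the measurement itself: in neither library did a called peak overlap any of their annotated transcription start sites or the 1 kb to each side of it. They are called closed below, which means only that no peak was called there. They made up 4.07% of the CpG-rich genes, while 34.5% of all protein-coding genes had no promoter peak by the same rule. All protein-coding genes here include 183 on the Y chromosome, which the females sampled do not carry. The windows of the 359 genes merged into 350 distinct regions, because neighbouring 5' ends can share a window.

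The assay was DNase-seq: DNase I cuts where nucleosomes leave the DNA bare, and sequencing the cut ends maps these open places. The samples form 1 group of 2 libraries, replicate 1 and replicate 2, both from the frontal cortex of B6CASTF1/J females aged 25 days. B6CASTF1/J mice are the F1 cross of the C57BL/6J and CAST/EiJ strains, and no treatment or engineered allele is named. How reads of the CAST/EiJ alleles were aligned to the C57BL/6J-based build mm10 is not given, and its part in missing peaks was not tested. The labels give the libraries separate biosamples but a single donor identifier, so differences between them need not be differences between animals. With 1 group there was no condition to compare, and since the peaks chose the genes no test bears on their lack of peaks. What follows is therefore a description, with the values of each library and, as a yardstick, the 8231 CpG-rich genes (93.4%) that had promoter peaks in each library. These are called open below.

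CpG islands are stretches of GC-rich DNA that mostly stay free of DNA methylation and serve as promoters of housekeeping genes and of many developmental regulators. At developmental regulators that a cell does not use, islands are typically held in a silent state by Polycomb group proteins, while islands of germ line genes are among the few that are methylated in body tissues. Neither Polycomb marks nor DNA methylation were measured in these libraries.

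The sequences below show what these promoters look like. Each is the 200 bases before the annotated 5' end of the gene, written 5' to 3' on the gene's strand from GRCm38 (mm10), with every CpG in capitals. Hoxa13 (chr6:52260881-52261080, minus strand), Pou4f1 (chr14:104468000-104468199, minus strand), Foxd3 (chr4:99656099-99656298, plus strand) and Tcf15 (chr2:152143361-152143560, plus strand) encode developmental transcription factors and had the most CpG in the 1 kb among the closed Hox, other homeobox, forkhead and bHLH genes. Wnt2b (chr3:104961922-104962121, minus strand) encodes a secreted Wnt ligand, and Ddx4 (chr13:112652476-112652675, minus strand) an RNA helicase of germ cells.
Hoxa13: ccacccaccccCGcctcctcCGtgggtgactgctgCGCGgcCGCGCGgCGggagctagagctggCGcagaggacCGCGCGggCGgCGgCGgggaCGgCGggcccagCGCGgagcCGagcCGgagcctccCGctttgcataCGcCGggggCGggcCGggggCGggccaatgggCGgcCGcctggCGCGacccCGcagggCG
Pou4f1: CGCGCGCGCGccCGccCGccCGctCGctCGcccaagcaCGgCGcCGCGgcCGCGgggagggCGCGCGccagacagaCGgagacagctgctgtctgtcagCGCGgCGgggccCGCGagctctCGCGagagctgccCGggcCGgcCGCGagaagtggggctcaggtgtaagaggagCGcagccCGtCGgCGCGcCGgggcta
Foxd3: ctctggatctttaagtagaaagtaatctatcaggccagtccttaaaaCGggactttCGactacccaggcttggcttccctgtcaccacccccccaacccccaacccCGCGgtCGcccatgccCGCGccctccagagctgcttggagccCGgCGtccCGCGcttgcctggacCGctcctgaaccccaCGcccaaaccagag
Tcf15: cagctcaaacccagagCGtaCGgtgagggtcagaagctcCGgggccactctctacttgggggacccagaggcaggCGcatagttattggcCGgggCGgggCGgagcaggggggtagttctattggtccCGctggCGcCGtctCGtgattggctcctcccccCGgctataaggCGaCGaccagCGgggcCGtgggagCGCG
Wnt2b: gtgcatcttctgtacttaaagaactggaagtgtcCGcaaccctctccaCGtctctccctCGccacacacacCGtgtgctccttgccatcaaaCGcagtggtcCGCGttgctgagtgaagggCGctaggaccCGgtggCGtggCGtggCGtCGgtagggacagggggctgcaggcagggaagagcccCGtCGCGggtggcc
Ddx4: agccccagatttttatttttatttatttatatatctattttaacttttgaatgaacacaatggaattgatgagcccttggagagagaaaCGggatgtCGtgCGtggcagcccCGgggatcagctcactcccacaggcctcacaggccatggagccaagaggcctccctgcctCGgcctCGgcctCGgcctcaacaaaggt

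The 200 bases held 33 CpG at Hoxa13 and 37 at Pou4f1. They held 13 at Foxd3, 18 at Tcf15, 16 at Wnt2b and 7 at Ddx4. The GC share of the same bases ran from 82.5% at Hoxa13 to 50.5% at Ddx4, whose upstream sequence has a run of T and A far from the 5' end. By the rule that chose these genes, no peak lay within 1 kb of any of their start sites in either library.

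A further pair stands for closed promoters whose sequence occurs more than once in the genome. Hist2h3c1 (chr3:96246485-96246684, plus strand), a gene of the replication-dependent histone H3, lies in a cluster of near-identical histone genes, and the printed bases overlap the noncoding transcript Gm20634. Gm21863 (chr12:19954305-19954504, plus strand) is a predicted protein-coding gene with no established name. Of the 32-base words in their 2 kb windows, 19.4% and 35.6% occur once in the genome.
Hist2h3c1: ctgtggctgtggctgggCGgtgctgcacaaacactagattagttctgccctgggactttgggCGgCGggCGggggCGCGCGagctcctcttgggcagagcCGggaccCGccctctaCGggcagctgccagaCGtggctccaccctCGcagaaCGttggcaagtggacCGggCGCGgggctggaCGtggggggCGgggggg
Gm21863: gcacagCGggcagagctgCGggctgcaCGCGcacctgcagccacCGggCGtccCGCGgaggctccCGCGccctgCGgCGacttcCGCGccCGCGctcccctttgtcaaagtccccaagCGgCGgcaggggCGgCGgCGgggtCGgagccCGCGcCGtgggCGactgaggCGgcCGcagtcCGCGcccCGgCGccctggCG

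CpG content was somewhat lower in the closed than in the open promoters. The closed promoters had a median of 68 CpG in the 1 kb (quartiles 59 and 84, range 53 to 153) and the open ones a median of 76 (quartiles 63 and 93, range 53 to 172). The median observed over expected CpG ratio was 0.715 in closed and 0.806 in open promoters, at a median GC share of 63% in closed and 62.3% in open ones. The closed share fell along the CpG scale, with 87 of 1246 genes (6.98%) at 53 to 58 CpG, 33 of 1016 (3.25%) at 70 to 75 CpG and 23 of 880 (2.61%) in the bin with the most CpG. Even that bin was not without closed promoters.

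**Figure D1:**
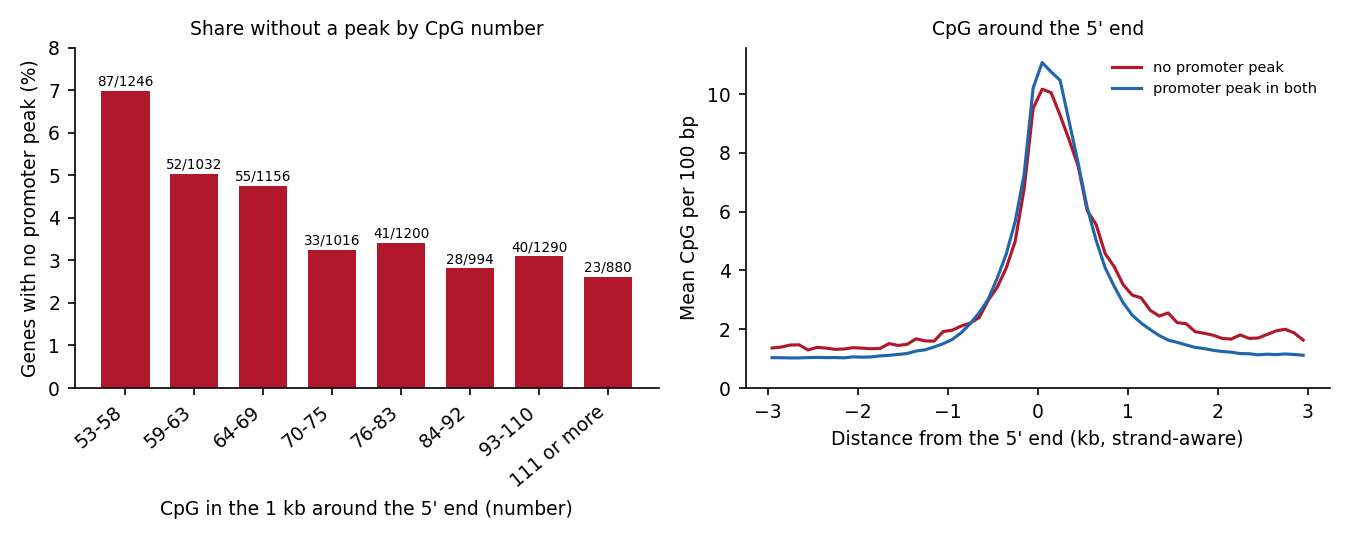
Left, the percentage of CpG-rich genes with no promoter peak in either library in 8 bins of CpG number, with closed genes over all genes of the bin above each bar; the share is 6.98% in the lowest and 2.61% in the highest bin. Right, mean CpG per 100 bp from 3 kb before to 3 kb after the 5' end for closed genes (red) and open genes (blue); both peak just after the 5' end, at 10.2 in closed and 11.1 in open genes.

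CpG density peaked just after the 5' end in both sets, but the closed promoters had a lower peak and more CpG farther out. In the 100 bp after the 5' end, closed promoters averaged 10.2 CpG and open promoters 11.1. In the 100 bp that start 1 kb downstream, closed promoters averaged 3.16 CpG and open ones 2.48. At the outer edge, in the last 100 bp before 3 kb downstream, closed promoters averaged 1.63 CpG per 100 bp and open ones 1.12. In the 100 bp farthest upstream the averages were 1.36 in closed and 1.03 in open promoters. Of the closed promoters 79.1% had more CpG after than before the 5' end, and of the open ones 80.2%.

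The gene models differed too. Closed genes had a median of 2 annotated start sites and open genes 5, and 136 closed genes (37.9%) had a single start site, as did 10.9% of open genes. Among the 1102 CpG-rich genes with a single start site 12.3% were closed, and among those with more than 1 start site 2.89%. Further start sites add sequence in which a peak would have kept a gene out, and 69 CpG-rich genes had no peak at the 5' end but one at another start site. Closed genes were also shorter, with a median of 11.8 kb and 5 exons against 28.8 kb and 10 exons in open genes. Single-exon genes made up 9.75% of the closed and 3.18% of the open set. Another protein-coding gene started inside the 2 kb window in 8.08% of closed and 23.8% of open genes.

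The 5 closed genes with the most CpG were Cabp7, Nudt10, Rtn4r, Zfp618 and Hoxa13. Cabp7, a calcium-binding protein gene, had 153 CpG, and its nearest peak lay 8840 bp away in replicate 1 and 26223 bp away in replicate 2. Rtn4r encodes the Nogo receptor of neurons and had 134 CpG, with the nearest peak at 4024 bp in replicate 1 and 8046 bp in replicate 2. Zfp618, a zinc finger gene, had 132 CpG and its nearest peaks at 23056 and 23289 bp. Nudt10 had 150 CpG, but 5.89% of its window's 32-base words were unique in the genome. The other 4 genes had windows with more than 90% unique words.

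Developmental transcription factors were the most numerous of the classes listed. Across 8 lists of such factors 221 genes were CpG-rich, and 89 of them (40.3%) were closed, beside the background of 4.07% over all CpG-rich genes. They made up 24.8% of the closed genes, while 1.26% of the open genes were on these lists. All 221 had windows with at least 90% unique 32-base words. The lists were drawn up with earlier results of these libraries known, so these shares are not independent evidence of a direction.

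**Figure D2:**
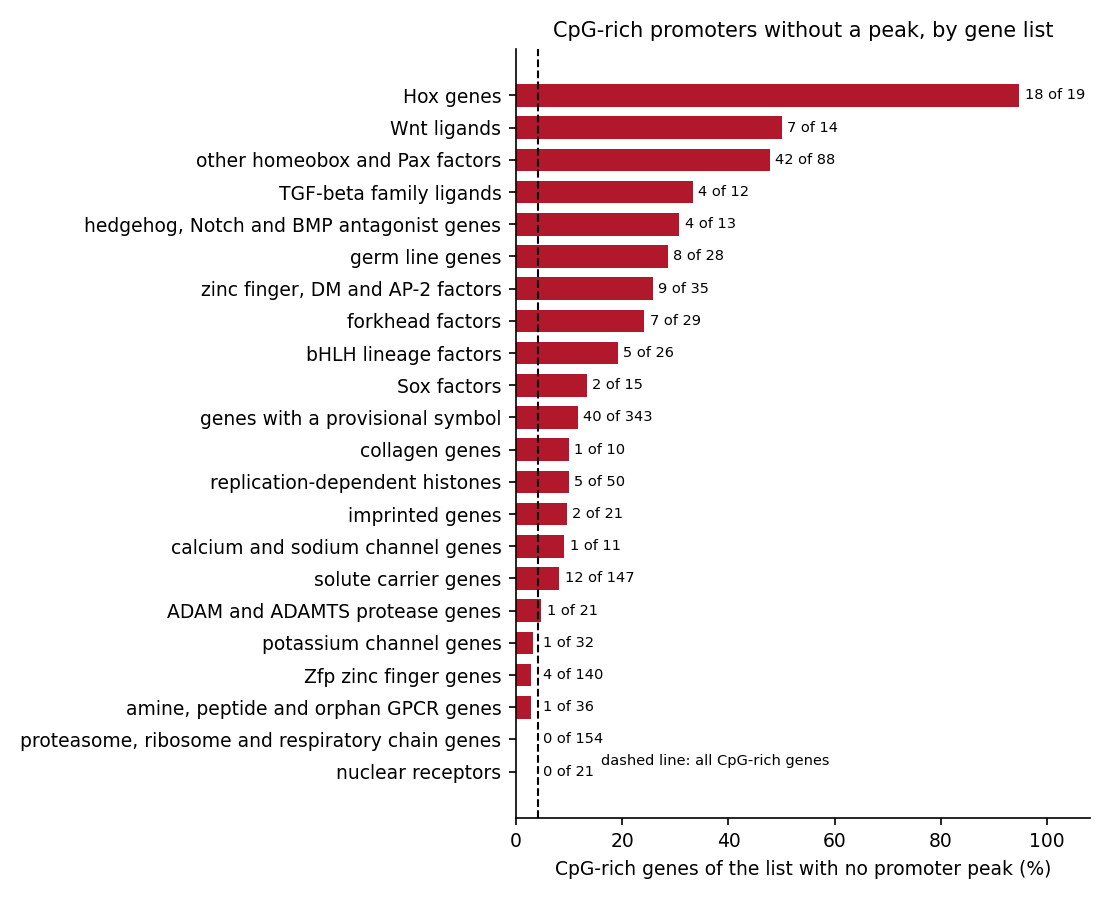
Percentage of CpG-rich genes with no promoter peak in either library for each gene list with at least 10 CpG-rich genes, with the counts beside the bars; the dashed line marks 4.07%, the share over all CpG-rich genes. Hox genes are at the top with 18 of 19, followed by Wnt ligands and the other homeobox and Pax factors, and 2 lists have none.

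Hox genes, which set position along the body axis from the hindbrain to the tail, were closed in 18 of 19 CpG-rich cases (94.7%). The closed ones spanned all 4 clusters, with 6 of 7 CpG-rich genes in cluster A, both in cluster B, all 4 in cluster C and all 6 in cluster D. Hoxa13, which acts in the distal limb and hindgut, had 126 CpG, and its nearest peaks lay at 3640 and 3660 bp, with values of 1.29 and 0.936. A peak's value is the authors' read-depth normalized signal. Hoxa4 had 125 CpG and its nearest peaks at 19972 and 19925 bp. Hoxd13, another gene of the distal limb, had 117 CpG with peaks at 4484 and 4450 bp. For these 3 genes the distances in the 2 libraries were within 50 bp of each other.

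The exception was Hoxa7, with 55 CpG and promoter peaks of 1.45 in replicate 1 and 1.35 in replicate 2. Within the clusters closed CpG-rich promoters followed each other with no other protein-coding gene between them. Hoxd9, Hoxd8, Hoxd3 and Hoxd4 formed such a run of 4 genes over 14.2 kb, although the 5' ends of Hoxd3 and Hoxd4 nearly coincide and share a window. Hoxc13, Hoxc12 and Hoxc11 formed a run of 3, as did Hoxa4, Hoxa5 and Hoxa6, and Hoxa11 with Hoxa13 a run of 2. Windows in these runs had at least 93.05% unique 32-base words.

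The other homeobox and Pax factors added 42 closed genes of 88 (47.7%), with 31 open in both libraries and 15 in 1 library. Pou4f1, a factor of sensory neurons and of brainstem and habenular nuclei, had 125 CpG and its nearest peaks at 44737 bp in replicate 1 and 54562 bp in replicate 2. Irx2, of the Iroquois family, had 124 CpG and lay far from any peak in both libraries, at 140361 and 63968 bp. Hmx1 and Nkx1-1 had 118 CpG each, and Barx1, a factor of the stomach and the face, had 113. Closed pairs of neighbours included Irx2 with Irx4, Irx3 with Irx5, and Nkx2-4 with Nkx2-2. Both members of several pairs of related genes were closed, among them the intestinal factors Cdx1 and Cdx2, the hindbrain factors Gbx1 and Gbx2, the dorsal midline and dopamine neuron factors Lmx1a and Lmx1b, the neural crest and muscle precursor factors Pax3 and Pax7, and the eye factors Vax1 and Vax2. Of the genes with a peak in 1 library, En2, Pax2 and Otx2 had one in replicate 1, with values of 0.435, 0.345 and 0.463.

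Open homeobox genes included factors of the cortex. Emx1, a marker of the dorsal forebrain, had promoter peaks of 1.14 and 1.04, and Lhx2, a cortical selector gene, of 1.62 and 1.83. Some open genes are not known for a role in the cortex, such as Six2 of the kidney, with 0.554 and 0.497. Lhx6, the factor of interneurons from the medial ganglionic eminence, was closed with 67 CpG, and its nearest peak lay 31133 bp away in both libraries with values of 3.51 and 2.87. In bulk tissue, cells too few to give a called peak and cells with a closed promoter cannot be told apart.

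Forkhead factors were closed in 7 of 29 cases (24.1%). Foxd3 of the neural crest had 95 CpG and peaks at 4122 and 4894 bp, Foxl2 of the ovary had 85 CpG, Foxe3 of the lens 80 and Foxe1 of the thyroid 72. Of the others 20 were open in both libraries and 2 in 1 library. The open ones included the FoxO gene Foxo3, with values of 4.64 and 6.46, and the cortical factor Foxp1, with 1.38 and 1.19. They also included genes not known as cortical factors, such as Foxp3 with 3.68 and 5.69 and Foxj1 with 4.07 and 4.51. Foxc2, with 0.599 and 0.611, and Foxd1, with 0.480 and 0.354, were open at low values. Sox factors were closed in 2 of 15 cases, Sox18 of endothelial cells and Sox14. All of Sox2, Sox4, Sox9 and Sox11 were open in both libraries. The Sox share (13.3%) was thus the lowest of the 8 factor lists. It is imprecise, with an exact Clopper-Pearson 95% interval of 1.66 to 40.5% that includes the 4.07% of all CpG-rich genes.

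T-box factors were closed in 4 of 7 cases: Tbx2, the T helper cell factor Tbx21, the mesoderm factor T (brachyury) and the heart factor Tbx20. Both CpG-rich GATA factors, Gata2 of blood precursors and Gata5 of the heart and endoderm, were closed, with nearest peaks at 3971 and 3911 bp for Gata2 and at 12522 and 12502 bp for Gata5. With so few genes these 2 shares are imprecise, with exact Clopper-Pearson 95% intervals of 18.4 to 90.1% for T-box and 15.8 to 100% for GATA factors, which cover counting error over genes only.

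Of the basic helix-loop-helix factors 5 of 26 (19.23%) were closed. Tcf15, which forms epithelial somites, had 117 CpG, with the nearest peak at 13456 bp in replicate 1 and 4122 bp in replicate 2. Twist1 of the mesenchyme had 114 CpG, with the nearest peak 28665 bp away in replicate 1 and 134239 bp away in replicate 2. Bhlhe23, Ptf1a of the pancreas and cerebellum, and Hand2 of the heart and limb were the others. The 17 open in both libraries included Olig2 and Hes5 of the neural lineages, but also Tal1, Scx, Msc, Twist2 and Ascl2. Neurog2 had a peak in replicate 1 only. Of the zinc finger, DM domain and AP-2 factors 9 of 35 (25.7%) were closed, among them the keratinocyte factor Bnc1 with 125 CpG, Ovol1 with 107, the spinal cord factor Dmrt3 with 69, the kidney and gonad factor Wt1 with 67, and Tfap2e with 63.

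Genes of developmental signalling were closed in 16 of 47 cases (34.0%) over 4 lists, again beside 4.07%. Wnt ligands had the highest share, with 7 of 14. Wnt2b had 96 CpG, and its nearest peak lay 1739 bp away in replicate 1, with a value of 0.0791, and 6140 bp away in replicate 2, with 1.92. Wnt3a, which maintains the axial progenitors of the embryo, had 90 CpG and its nearest peak 7289 bp away in both libraries, with 0.921 and 1.27. Wnt6, Wnt9b, Wnt10b, Wnt3 and Wnt1 completed the set. Wnt9b with Wnt3 and Wnt10b with Wnt1 were neighbours. Of the 4 open Wnt genes, Wnt7a had the highest values, 2.503 in replicate 1 and 2.07 in replicate 2. Wnt5a had the lowest, 0.576 and 0.662, and Wnt9a and Wnt11 lay between them in both libraries.

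Fgf ligands gave 1 closed gene of 8, Fgf8, the organizer signal of the midbrain-hindbrain boundary, with 102 CpG and peaks at 3566 and 3547 bp. TGF-beta family ligands gave 4 of 12, namely Gdf11, Bmp8b, Gdf7 and Gdf6. Gdf11, a regulator of axial patterning, had 102 CpG and a peak at 3823 bp in both libraries, with values of 1.42 and 1.74. Among the 13 genes of hedgehog and Notch signalling and of BMP and Wnt antagonists, Ihh of cartilage, the BMP antagonist Chrd, the Wnt antagonist Sfrp5 and the vascular Notch ligand Dll4 were closed. Jag1, Nog and Ptch1 were open in both libraries.

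Germ line genes were closed in 8 of 28 CpG-rich cases (28.6%), beside 4.07% of all. The share was 12.5% with a limit of 63 CpG and 57.1% with the stronger 50% of the peaks. In the list as given, 15 genes were open in both libraries and 5 in 1 library. Ddx4, the germ cell helicase also called Vasa, had 73 CpG and its nearest peak 8086 bp away in both libraries, with values of 2.68 and 3.08. D1Pas1, a testis helicase gene, had 66 CpG and its nearest peaks at 43069 and 41727 bp. Adad1 of the testis, Mael of the piRNA pathway and the testis ADP/ATP carrier Slc25a31 had 62, 61 and 61. Of the 3 CpG-rich genes of pluripotent cells, Utf1 was closed, with 64 CpG.

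Some closed promoters belong to neurons of other brain regions or to other organs. Of the 7 CpG-rich genes that mark transmitter identity elsewhere in the brain 3 were closed, beside 4.07% of all CpG-rich genes. These were the vesicular acetylcholine transporter Slc18a3, the serotonergic factor Fev and the vesicular monoamine transporter Slc18a2. The other 4 were open in both libraries. With so few genes the share is imprecise, with an exact Clopper-Pearson 95% interval of 9.9 to 81.6%. Slc18a3 had 89 CpG and a peak 8251 bp away in both libraries, with 1.12 and 1.22. The dopamine receptor gene Drd2, best known from striatal neurons, was the only closed one of the 36 CpG-rich genes on the list of amine, peptide and orphan G protein-coupled receptors (2.78%), with its nearest peaks 45656 and 32827 bp away. Kcnk15 was the only one of 32 potassium channel genes, Col8a2 of 10 collagen genes and Adamts14 of 21 ADAM and ADAMTS protease genes. These counts of 1 are too small for a comparison with the 4.07% of all CpG-rich genes, and they depend on the library. Without replicate 1 the shares were 5.56% of the receptor, 6.25% of the potassium channel, 40% of the collagen and 9.52% of the protease genes. Without replicate 2 they were 8.33%, 6.25%, 10% and 4.76%.

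Solute carrier genes were closed in 12 of 147 cases (8.16%, beside 4.07%), led by Slc45a3 with 94 CpG, and including the creatine transporter gene Slc6a8 with 80. Imprinted genes were closed in 2 of 21 cases (9.52%), Zdbf2 with 121 CpG and the thyroid hormone deiodinase Dio3. Of the 5 CpG-rich genes of striated muscle and heart Hand2 and Tbx20 were closed, and of the 8 of blood and immune cells Tbx21 and Lef1. Among brain cell types Cldn11, a tight junction gene of myelin, was the closed one of 7 oligodendrocyte genes, and Lhx6 of 7 inhibitory neuron genes. With 1 or 2 closed genes each, the shares of the lists after the solute carriers are imprecise.

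Genes that all cells use were below the background. None of 154 CpG-rich genes of the proteasome, the ribosome and the respiratory chain was closed, which allows a share of up to 2.37% (exact Clopper-Pearson 95% interval). Nuclear receptors had none of 21 (upper limit 16.1%), and the Zfp zinc finger genes 4 of 140 (2.86%, interval 0.784 to 7.15%). The intervals of these 2 lists include the 4.07% of all CpG-rich genes, and no difference from it is claimed for either. None of the CpG-rich pan-neuronal (0 of 6), excitatory neuron (0 of 5), astrocyte (0 of 4), endothelial and mural (0 of 3) or microglial genes (0 of 1) was closed. Lists this short give imprecise shares: the exact upper limits run from 45.9% for 0 of 6 to 97.5% for 0 of 1. Over all CpG contents, 12 of 12 pan-neuronal and 14 of 14 excitatory genes had promoter peaks in each library, as did 12 of 17 inhibitory, 7 of 12 astrocyte, 7 of 18 oligodendrocyte, 4 of 12 microglial and 5 of 13 endothelial and mural genes. The tissue label thus has its neuronal markers, and Tle4 and Grin1, for example, had promoter values of 6.84 and 11.3 and of 1.90 and 3.13. Outside all lists 175 of 7503 CpG-rich genes (2.33%) were closed. Those with the most CpG were Cabp7, Nudt10, Rtn4r, the adaptor gene She and the planar cell polarity gene Celsr1. She had 125 CpG and its nearest peaks at 27511 and 27611 bp, and Celsr1 had them at 5124 bp in replicate 1 and 20184 bp in replicate 2.

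Sequence that occurs more than once made up a distinct share of the closed set. In 40 closed genes (11.1%) fewer than 50% of the 32-base words of the window were unique, against 43 open genes (0.522%). For 20 closed genes no word was unique, and for 1 open gene. Of all 95 CpG-rich genes below 50%, 40 were closed, 43 open and 12 open in 1 library. Reads from such words can come from several places, and how the authors placed them is not given. The closed share was 42.1% among these 95 genes and 3.64% (300 genes) among the 8249 CpG-rich genes with at least 90% unique words. The part of multiple copies in the missing peaks was not tested.

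**Figure D3:**
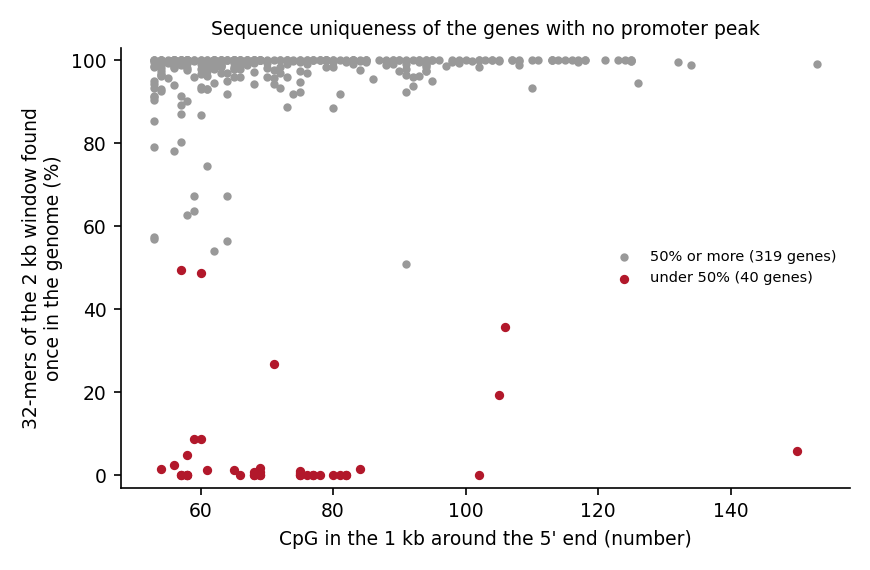
Each point is a closed gene, placed by its CpG number (horizontal) and the percentage of 32-base words of its 2 kb window that occur once in the genome (vertical). The 40 genes in red are below 50%, and most other genes lie near 100%.

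Of these 40 genes 23 carry a provisional symbol, 13 lie on chromosome 14 and 10 on chromosome 4. Fam177a, Srp54b, 1700047I17Rik2 and Srp54c on chromosome 12 followed each other with at most 1.83% unique words. Entpd4 and Slc25a37, the mitochondrial iron importer of erythroid cells, had no unique word, and neither had Entpd4b and Gm16867 nearby. The closed gene farthest from any peak, Gm21953 on chromosome 4, had no unique word and its nearest peaks 519989 and 482447 bp away. Genes with a provisional symbol were closed in 40 of 343 cases (11.7%), and in 5.24% of cases with at least 90% unique words.

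All 5 closed histone genes were of this kind, out of 50 CpG-rich replication-dependent histone genes (10%). Hist1h2ao and Hist1h2bq share a divergent promoter, as do Hist1h2ap and Hist1h2br, and none of the 4 windows had a unique word. Their nearest peaks lay between 1216 and 1563 bp from the 5' end in both libraries. Of the 10 CpG-rich histone genes with under 50% unique words, the 5 above were closed and 4 were open in both libraries. The only CpG-rich gene on the Y chromosome, Gm47283, had no promoter peak, with 102 CpG and no unique word. Both libraries are from females, which carry no Y chromosome, so its count among the closed genes does not describe a promoter closed in cortex.

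Few closed windows held bases that passed the authors' threshold on the cut rate. A deposited table lists the bases whose cut rate passed a false discovery rate of 0.05, and such bases occurred in the windows of 19 closed genes in replicate 1 (5.29%) and of 24 in replicate 2 (6.69%). The shares of open genes were 99.2% and 99.1%. The windows of 7 closed genes had them in both libraries. No footprint, a short protected stretch within a cut region, was listed in any closed window in either library, while 98.7% of open windows had one in replicate 1 and 98.1% in replicate 2. These values come from the same cuts as the peaks and are not independent of the choice of genes.

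**Figure D4:**
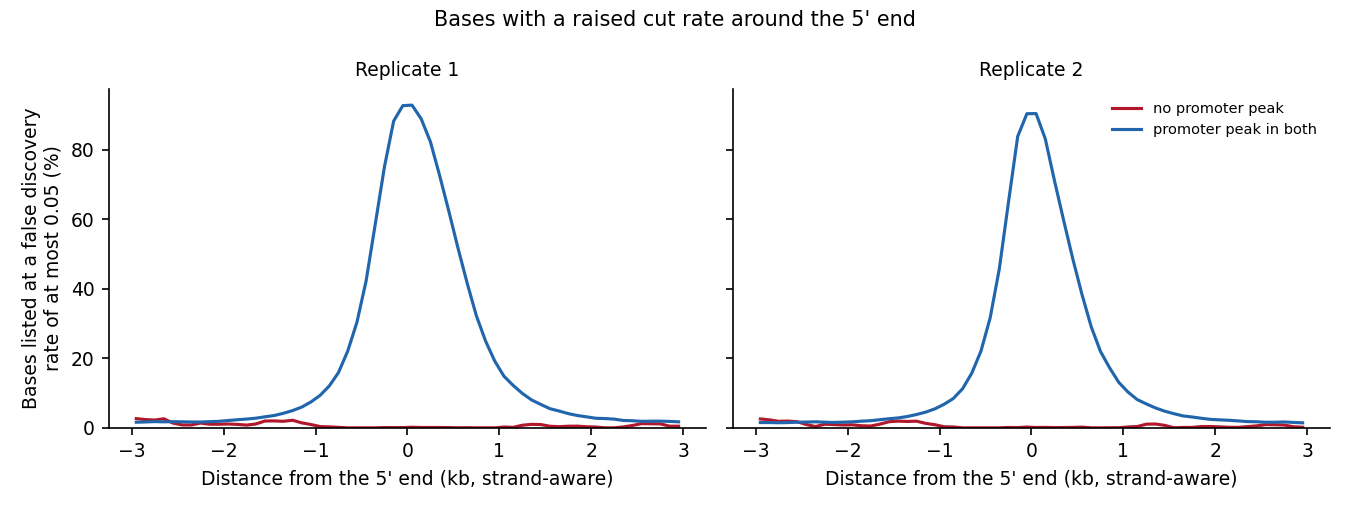
Percentage of bases listed at a false discovery rate up to 0.05 in 100 bp bins from 3 kb before to 3 kb after the 5' end, for closed genes (red) and open genes (blue), in replicate 1 (left) and replicate 2 (right). In the 100 bp after the 5' end it is 0.175% and 0.103% in closed genes and 92.8% and 90.4% in open genes.

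The profile around the 5' end gives the same contrast by position, which the choice of the genes by peaks largely fixes near the 5' end. In the 100 bp after the 5' end 0.175% of the bases of closed genes were listed in replicate 1 and 0.103% in replicate 2. In open genes the shares were 92.8% in replicate 1 and 90.4% in replicate 2. The order differed between the outermost bins: in the 100 bp farthest upstream 2.65% and 2.56% of bases were listed in closed genes and 1.61% and 1.52% in open genes, and in the 100 bp farthest downstream 0.468% and 0.170% in closed genes and 1.73% and 1.44% in open genes.

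The closed promoter with the most listed bases was that of Oxtr, the oxytocin receptor gene, with 60 CpG. Its window held 283 listed bases in replicate 1 and 189 in replicate 2, and the nearest peak ended 1038 bp upstream of the 5' end in replicate 1 and 1018 bp upstream in replicate 2, with values of 2.04 and 1.76. The peak thus lay just outside the 1 kb limit. Wnk4, a kinase gene of the kidney, was as close, with peaks at 1062 and 1007 bp and values of 1.00 and 1.29. Chst3, Rtn4r, Aifm3 and Klrg2 had the next most listed bases, between 0 and 46 in a library.

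The CpG limit had no edge of its own. At exactly 53 CpG, 16 of 209 genes were closed, among them Flt4, Glp1r and Grin3b, and at 52 CpG, just outside, 13 of 209 had no promoter peak, among them Arxes2, Clcf1 and Gm5868. A further 224 CpG-rich genes had a promoter peak in 1 library only, 165 in replicate 1 and 59 in replicate 2. Their strongest promoter peaks were weak, with a median value of 0.486 where called in replicate 1 and 0.485 where called in replicate 2. In genes open in both the medians were 2.62 and 2.86. Closed genes and these border on each other, since a single call in either library moves a gene from one set to the other.

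Many closed promoters had open chromatin at some distance. The nearest peak was a median of 9193 bp from the 5' end in replicate 1 and 10220 bp in replicate 2, with ranges of 1026 to 519989 bp and 1007 to 482447 bp. A peak lay within 10 kb of 189 genes (52.6%) in replicate 1, of 173 (48.2%) in replicate 2, and of 160 in both libraries. In neither library did 157 (43.7%) have one within 10 kb. Of open genes 99.8% and 99.7% had a peak within 10 kb, but there the promoter peak itself can count. Within 50 kb the median number of peaks was 6 and 5 in closed genes and 7 in each library in open genes. For 221 closed genes (61.6%) the nearest peaks of the libraries were on the same side and at distances within 200 bp of each other. The nearest peak lay upstream in 199 genes in replicate 1 and 219 in replicate 2. Its median value was 0.802 in replicate 1 and 0.857 in replicate 2.

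**Figure D5:**
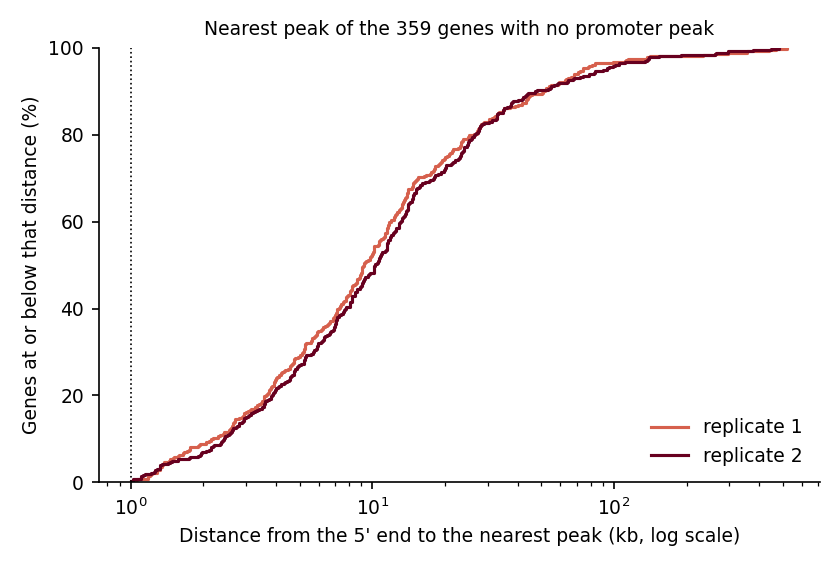
Cumulative percentage of the 359 closed genes against the distance from the 5' end to the nearest peak (kb, log scale), 1 line per library; the dotted line is the 1 kb limit of the rule. The lines of both libraries run close together, with medians of 9193 and 10220 bp.

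A peak in the body of the gene was present for 122 closed genes in replicate 1 (34.0%) and 118 in replicate 2 (32.9%). Of open genes 97.6% and 97.5% had one, and there too the promoter peak can count. Very near peaks, within 2.5 kb of the 5' end, occurred in 42 closed genes in replicate 1 and 39 in replicate 2. Peaks beyond 50 kb were the nearest in 38 and 35 closed genes. Cnn2, a gene of the actin-binding calponins, had 7 peaks within 10 kb in each library, the nearest at 1284 bp with values of 1.85 and 2.13, and was chosen for mention after these counts were seen. Grin3b, an NMDA receptor subunit gene, had its nearest peak 10555 bp away in replicate 1 and 10535 bp away in replicate 2, with high values of 5.83 and 7.47. Gabre, a GABA-A receptor subunit gene on the X chromosome with 98.7% unique words, had its nearest peak 261723 bp away in both libraries, and was also chosen after its values were seen.

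Closed genes were spread over the genome. Of 359, 56 lay in 24 runs of neighbouring protein-coding genes, of which 18 were pairs. By chromosome the closed share ran from 1.38% on chromosome 18 (3 of 217) to 6.43% on chromosome 4 (41 of 638), leaving out the single gene on the Y chromosome. Chromosome 14, with 19 of 319 (5.96%), came next. Of the 41 genes on chromosome 4 and the 19 on chromosome 14, 10 and 13 were those with under 50% unique words. The X chromosome had 10 of 188 (5.32%).

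The share of promoters with a motif's letters was alike in closed and open genes for some factors and lower in closed genes for others. They were counted on both strands in the 250 bases before and 50 after the 5' end, with matches of different motifs allowed to overlap. The GC box of SP and KLF factors (GGGCGG) was as frequent in closed as in open promoters, at 73.8% and 74.9%, beside 43.01% of all protein-coding promoters. The palindromic E-box (CACGTG) was in 12.5% of closed and 11.1% of open promoters, beside 7.75% of all, and the NFY box (CCAAT) in 34.0% and 37.3%, beside 39.0% of all. Matches to the ETS motif (CCGGAAG), by contrast, were in 18 closed promoters (5.01%) and 18.8% of open ones, beside 10.8% of all. The NRF1 core (GCGCATGC) was in 1.67% of closed and 6.34% of open promoters, beside 3.71% of all.

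The YY1 motif (AAGATGGCG) was in 1 closed promoter, that of Oxct2b, and in 3.15% of open promoters, beside 1.70% of all. The CRE (TGACGTCA) was in 1.67% of closed and 4.08% of open promoters, beside 2.43% of all, and the ZBTB33 motif (TCTCGCGA) in 1.39% and 2.98%, beside 1.38% of all. With at least 90% unique words the ETS shares were 4.33% of closed and 18.7% of open promoters and the NRF1 shares 2.00% and 6.16%. ETS matches in closed promoters included Spint1, Fkbp6, Adad1 and Irx3, and NRF1 matches included Fkbp6, Foxn4 and Ovol1.

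The remaining motifs were in few promoters of either set. E2F letters (TTTCCCGC) were in 3.62% of closed and 2.503% of open promoters, beside 1.34% of all, and the TATA box (TATAAA) in 7.52% and 5.20%, beside 12.6% of all. The homeodomain motif (TAATTA) was in 2.51% of closed and 1.45% of open promoters, beside 5.30% of all. Letters of the REST motif (TTCAGCACC) were in 2 closed promoters (0.557%) and 0.364% of open ones, beside 0.383% of all, and the CTCF core in 1.95% and 2.71%, beside 1.59% of all. A match is a string of letters, and no binding was measured.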

How the data were processed

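DNase-seq was done on 2 libraries of 1 group, numbered as the labels number the biological replicates. Per the text deposited beside each library's files, the build is mm10 and each library was processed from its own alignment, without pooling. The authors' peak lists give a read-depth normalized signal per peak on a scale that is not stated. The authors' table of the cut rate gives a q-value per position and lists those of at most 0.05, and the deposited footprint lists carry the constant 0.01, read here as the threshold p-value of the call. Not given in the sources used here: the aligner, the callers, the sequencing depth and the handling of reads with several placements, so signal values have no counting interval.

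The longer peak list of each library was used. A promoter peak was one that overlapped an annotated start site of the gene, or the 1 kb to each side of it, by at least 1 bp. Genes and start sites came from the GENCODE annotation of mm10, and sequence from the GRCm38 genome, the same build. CpG was counted on the 1 kb around the 5' end. A 32-base word was unique where it occurs once in the genome on either strand. Python 3.11.15, numpy 2.4.6, pandas 2.3.3, scipy 1.17.1 and numba 0.67.0 were used, and the counting was checked on simulated data.

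No hypothesis test was run: the genes were chosen by the peaks and genes are not replicates. The exact intervals treat genes as independent, which neighbouring genes need not be. They are a guide to the precision of a share and not a test. The genes and the 38 gene lists were chosen with earlier results of these data known. The text names, by rule, up to 5 closed genes per list with the most CpG, the 10 with the most CpG of all, up to 3 at the CpG limit and 3 just below it, up to 5 with the most listed bases, and the longest runs; a gene that the rule names but the text does not is not reported here, and others are examples, picked after their values were seen. Alternatives were 12 settings of peak list, window, CpG limit, overlap, uniqueness, gene models and libraries.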

Additional observations from a re-analysis of the deposited data

How the results depend on the processing

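The number of closed CpG-rich genes, 359, depends on how many weak peaks are let in. With the shorter, stricter peak lists it was 699, with the stronger 50% of the longer lists 771, and with a limit of 63 CpG it was 229 of 6717 genes. Leaving out 1 library in turn gave 418 to 524 genes, 524 without replicate 1 and 418 without replicate 2. It was 411 with 500 bp on either side of a start site, 298 with 2500 bp, 428 with the 5' end only, 513 of 10689 with 43 CpG, 364 where at least 50% of a peak had to lie in the window, 300 with at least 90% unique words and 319 without provisional symbols. Of 22 gene lists with at least 10 CpG-rich genes 17 were above the share of all CpG-rich genes, and 14 to 20 in the alternatives. These counts include lists whose exact intervals cover that share, such as the ADAM and ADAMTS proteases (1 of 21), the collagens (1 of 10) and the histones (5 of 50). The closed share of the 8 lists of developmental factors was 33.9 to 60.2% over the 13 settings, of Hox genes 89.5 to 100%, of the signalling lists 25.5 to 51.1% and of germ line genes 12.5 to 57.1%, above that of all CpG-rich genes each time. Histones were above it in 11 of the 13 settings. For 32 other values, mostly shares of lists, 327 alternatives lay within the interval of the value given and 56 outside it. These counts do not show that the values are stable, since the intervals of short lists are wide. The Sox share went from 13.3% to 33.3% with the stricter peak lists and still lay within its interval. So did the collagen share, which went from 10% to 40% without replicate 1. No paired analysis was possible because there is 1 group. Since the sequencing depth is not given, a closed promoter is one with no peak called at an unknown depth.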

Other observations

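Among the 175 closed genes outside all lists, several are known from epithelia, and a list of 55 epithelial genes was drawn up after their symbols had been seen, so it is not independent of them. Of its 28 CpG-rich genes 16 (57.1%) were closed, 9 were open in both libraries and 3 in 1 library, beside 4.07% of all CpG-rich genes. The closed ones included the splicing factors Esrp1 and Esrp2, the factors Grhl2 and Ovol1, the protease St14 and its inhibitor Spint1, the claudin Cldn3, the laminin chain Lama5, the integrin Itgb4 and the junction genes Pkp1 and Ppl. The open ones included Cdh1, Jup and Ocln. At Grhl2 the nearest peak lay 72634 bp away in replicate 1 and 58051 bp away in replicate 2. At Esrp1 it lay 64423 bp away in both libraries, with values of 3.37 and 3.07. Of the 16 closed genes 15 had at least 90% unique 32-base words.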
